A study of Mus musculus with 12 samples.

Results

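The glucose transport and glycolysis switch genes are 10 genes that carry glucose into the cell, commit it to glycolysis and decide what becomes of the pyruvate made. They were taken from the read count table by symbol, as 10 of its 24495 genes, and all 10 passed the filter on low counts that left 15532 genes for testing. The list holds the glucose carriers Slc2a1 (GLUT1) and Slc2a3 (GLUT3), the lactate exporter Slc16a3 (MCT4), the hexokinases Hk1 and Hk2, the phosphofructokinases Pfkl and Pfkp, the lactate dehydrogenases Ldha and Ldhb, and the pyruvate dehydrogenase kinase Pdk1. Glucose enters through the GLUT carriers, hexokinase traps it as glucose 6-phosphate, and phosphofructokinase makes the committed step towards pyruvate. LDHA favours the reduction of pyruvate to lactate and LDHB the reverse. PDK1 phosphorylates pyruvate dehydrogenase and so restrains the oxidation of pyruvate within the mitochondria. Pluripotent stem cells are known for high glycolysis even with oxygen present, and they leave that state as they differentiate.

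The study compared CCE-Nanog-GFP mouse embryonic stem cells (mESCs) that stably carried a scrambled shRNA (shSC, labelled WT or scr) with the same cells carrying an shRNA against cathepsin L (shCTSL, labelled CTSL KD), to follow gene expression through differentiation when this protease is reduced. GFP-positive cells had been sorted and grown in high-glucose medium with LIF (Day 0), and embryoid bodies were made from them without LIF in all-trans retinoic acid with rotation for 2 or 4 days (Day 2, Day 4). Each of the 6 groups held 2 libraries, described as biological replicates, and shCTSL is 1 selected line, so that line and knockdown cannot be told apart. An embryoid body is a mixture of cell types, and in such bulk RNA fewer cells of a type and less RNA per cell cannot be told apart.

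The libraries held 11171111 to 27155553 counts. Replicates lay close together in 5 groups, where the SD over the 10 genes of their log2 ratio was 0.0572 to 0.264, and apart in shCTSL Day 2, where it was 0.509. Over all genes tested, the chi-square of the replicates' counts per degree of freedom, near 1 where only counting error parts them, was 130.2 in shCTSL Day 2 and 2.64 to 10.1 in the other groups. Replicate 1 of that group also held 3.43% of its counts in the ribosomal RNA gene Rn45s, against 0.1697 to 1.43% in the other 11 libraries, so changes to and from shCTSL Day 2 are also given without each of its libraries. Such a fit leaves 1 library in that group, whose spread then no longer enters the estimate, and calls in other comparisons can change with it. Calls in these fits are given without the share of all genes called. The target Ctsl averaged 38.4 ± 1.23 normalized CPM (SD, n = 2) in shCTSL against 142 ± 7.15 in shSC at Day 0, 183 ± 39.0 against 380.2 ± 15.8 at Day 2, and 255 ± 3.31 against 453 ± 42.9 at Day 4. It was called lower at Day 0 (3.70-fold) and Day 2 (2.08-fold), and at Day 4 its 1.78-fold lower level had an FDR of 0.0896 (edgeR quasi-likelihood test).

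The labelled cell state was checked on marker genes. The summed level of 8 stem cell markers was 5990 to 6432 normalized CPM in the 4 Day 0 libraries and 347 to 419 in the 4 Day 4 libraries, and all 8 were called lower at Day 4 in either line. Over the same days the 8 markers of extraembryonic endoderm went from 6.51 to 7.69 up to 363 to 456 (7 of 8 called higher in shSC, 8 of 8 in shCTSL), the 6 of mesoderm from 5.205 to 7.24 up to 144 to 194 (3 of 5 tested called higher in each line, and 1 lower in shCTSL), and the 5 of fibroblasts or stroma from 3.37 to 5.72 up to 391 to 411 (5 of 5 in each line). The 6 neural markers summed to 193 to 221 at Day 0 and 81.5 to 135 at Day 4 (4 called higher and 1 lower in each line), the 4 trophoblast markers to 34.2 to 58.1 and 18.999 to 32.3 (2 of 3 tested called higher in shSC, 1 of 3 in shCTSL, 1 lower in each). Blood markers summed to at most 2.13 in any library, with Hba-a1 at 0 counts in all 12. These shifts moved with every change between days described here, and their part in the changes was not tested.

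Hk2, Pfkp, Ldha and Pdk1 fell in both lines already by Day 2 and stayed low. Slc2a3, Slc16a3 and Pfkl were called lower only after Day 2, though the Slc2a3 libraries of shCTSL Day 2 already lay below those of Day 0. Slc2a1, Ldhb and Slc16a3 had their highest levels at Day 2 in both lines, and the rise of Slc16a3 was not called in either. Calls were made on the FDR, the Benjamini-Hochberg adjusted p of edgeR's quasi-likelihood test over all genes, with a limit of 0.05, and needed a fold change of 1.5 or more. From Day 0 to Day 2 in shSC, 2 of the 10 genes were called higher (29.3% of all genes tested) and 4 lower (25.3%). From Day 2 to Day 4 in shSC none was called higher (11.4% of all genes) and 6 were called lower (12.4%). Across the whole course in shSC, Day 4 against Day 0, none was called higher (32.1%) and 7 were called lower (28.7%). In shCTSL the counts were 1 higher (30.9%) and 4 lower (24.6%) from Day 0 to Day 2, none higher (11%) and 7 lower (12.4%) from Day 2 to Day 4, and none higher (32.3%) and 8 lower (27.6%) from Day 0 to Day 4. DESeq2 gave the same numbers of calls in these 6 comparisons, and limma-voom with library weights gave 6 in place of 7 from Day 2 to Day 4 in shCTSL. Without replicate 1 of shCTSL Day 2, 6 genes were called from Day 0 to Day 2 and 5 from Day 2 to Day 4 in that line, and without replicate 2, 7 and 8. The median log2 fold change of the 10 genes from Day 0 to Day 4 was -1.29 in shSC and -1.04 in shCTSL, against 0.03 and 0.06 for all genes tested. The Day 0 libraries of a line are shared by its comparisons of Day 2 and Day 4 with Day 0.

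**Figure D1:**
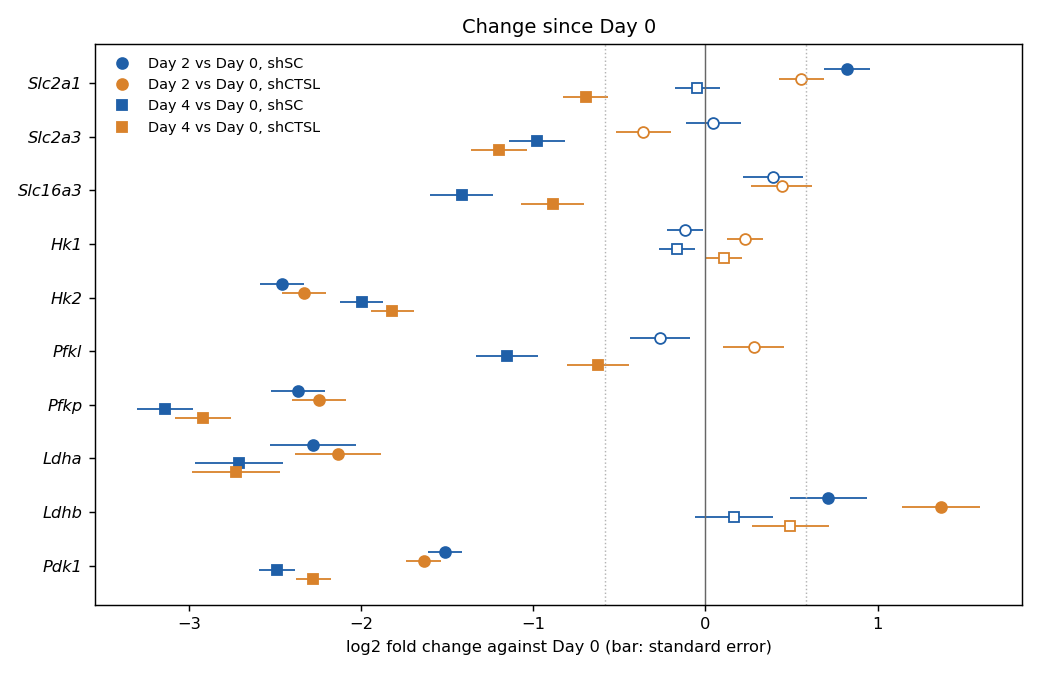
Log2 fold change of each of the 10 genes against Day 0 (horizontal axis), with circles for Day 2 and squares for Day 4, blue for shSC and orange for shCTSL; bars are standard errors, filled symbols are called, and dotted lines mark 1.5-fold. Hk2, Pfkp, Ldha and Pdk1 lie at log2 fold changes of -1.52 or lower at both days in both lines, and Hk1 stays within 0.23 of 0.

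Per kilobase of exon, Ldha stood highest among the 10 in undifferentiated shSC cells, at 356 ± 8.51 normalized CPM per kb (n = 2), ahead of Slc2a3 (162 ± 2.97), Slc2a1 (149 ± 0.0495) and Hk2 (109.9 ± 2.35). Pfkl (62.0 ± 3.11), Ldhb (49.7 ± 0.953), Pdk1 (31.8 ± 1.34), Pfkp (20.5 ± 1.24), Hk1 (9.73 ± 0.691) and Slc16a3 (5.65 ± 0.292) followed, and no neighbours in this order overlapped between their 2 libraries. By Day 4 in shSC the carriers led, Slc2a1 with 144 ± 30.2 and Slc2a3 with 82.1 ± 14.9, and Ldhb (55.8 ± 3.92) and Ldha (54.2 ± 5.202) overlapped. Pfkl (27.8 ± 1.76) and Hk2 (27.5 ± 0.433) overlapped as well, as did Pfkp (2.31 ± 0.579) and Slc16a3 (2.13 ± 0.293), and Hk1 (8.68 ± 0.4999) and Pdk1 (5.66 ± 0.0967) lay apart between them. The order at Day 0 was the same in shCTSL, and at Day 4 it differed from shSC only in Slc16a3 standing above Pfkp. These orders and overlaps rest on the merged exon length of each gene and can change with another length. Per kb of the longest coding transcript, Slc2a3 held 58.9% of its pair with Slc2a1 in shCTSL at Day 4, and so stood above it. Ldhb then held 46.5% of its pair with Ldha there, and so stood below it. Reads that fit several places equally had been removed with the mapping quality filter, and the Ldha transcript has 7 further alignments in mm9 over at least 50% of its length at 90% identity or more and Ldhb has 1, so these 2 levels are uncertain. The other 8 genes have none.

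**Figure D2:**
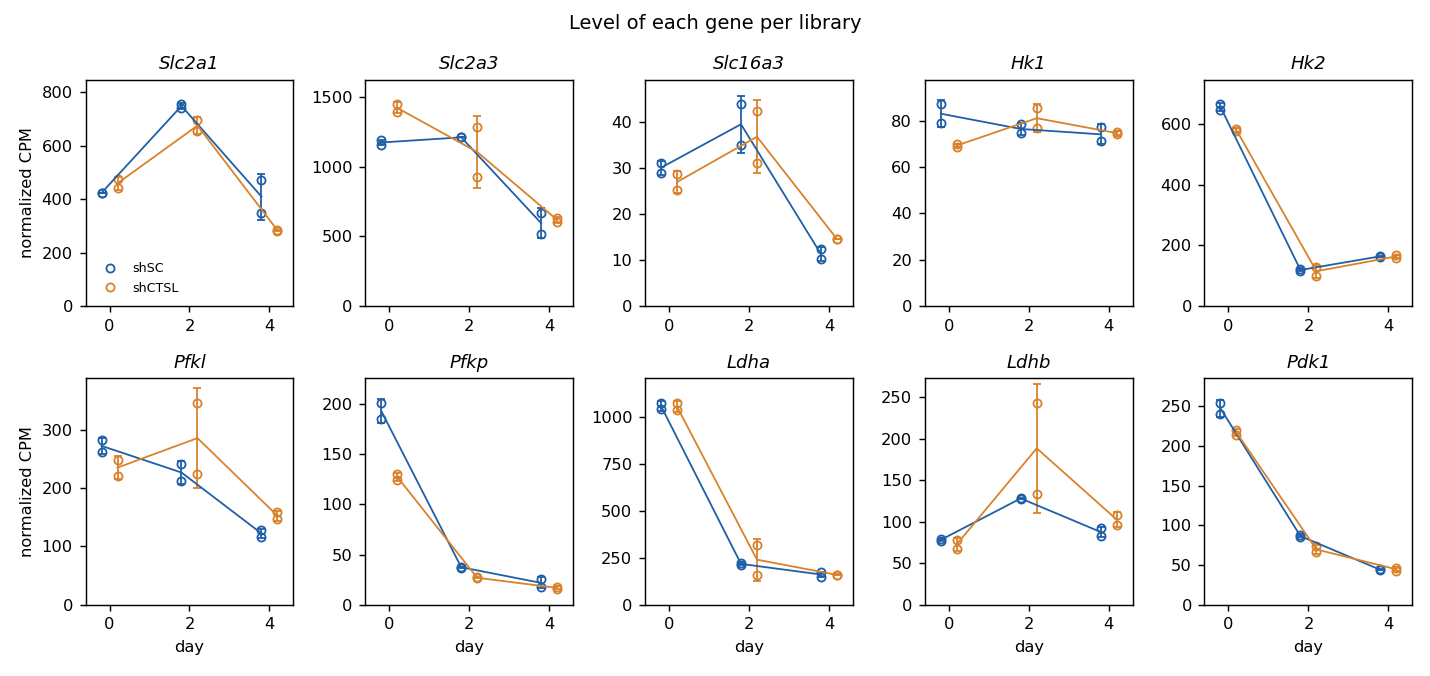
Normalized CPM (vertical axis, from 0) of each gene by day, in shSC (blue) and shCTSL (orange). Circles are single libraries, lines join the means of 2 libraries, and bars are 1 SD; in shCTSL Day 2 the 2 libraries of Ldhb stand apart at 243 and 133 and those of Ldha at 321 and 161, and in shSC Day 4 those of Slc2a1 at 471 and 349.

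Slc2a1 encodes GLUT1, the widely expressed basal glucose carrier, and lies at mm9 chr4:118781316-118809935 on the plus strand. In shSC its level in replicates 1 and 2 was 424 and 424 normalized CPM at Day 0, 757 and 742 at Day 2, and 471 and 349 at Day 4. In shCTSL it was 476 and 443 at Day 0, 654 and 698 at Day 2, and 285 and 283 at Day 4. Every Day 2 library of a line lay above those of Day 0, and the Day 4 libraries lay around the Day 0 level in shSC and below it in shCTSL. The rise to Day 2 was called in shSC (log2 fold change 0.82 ± 0.13 (SE), FDR = 0.000344), and in shCTSL it was 0.56 ± 0.13, 1.47-fold and just under the 1.5-fold limit (FDR = 0.00389). That value was 0.64 and called without replicate 1 of shCTSL Day 2, 0.51 and not called without replicate 2, and 0.61 and called without replicate 1 of shCTSL Day 0. It fell from Day 2 to Day 4 by 0.87 on the log2 scale in shSC (FDR = 0.000831) and by 1.25 in shCTSL (FDR = 0.000104; -1.32 and -1.21 without replicate 1 and 2 of shCTSL Day 2). Against Day 0, the Day 4 level was -0.05 ± 0.13 in shSC (FDR = 0.763), a value that rests on single libraries, with 0.15 and -0.28 when replicate 2 or 1 of shSC Day 4 was left out. In shCTSL Slc2a1 was called lower at Day 4 than at Day 0, with -0.70 ± 0.13 (FDR = 0.000908).

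Slc2a3 encodes GLUT3, a carrier with high affinity for glucose, and lies at mm9 chr6:122677827-122751658 on the minus strand. In shSC it stood at 1189 and 1159 normalized CPM at Day 0, 1210.0 and 1211 at Day 2, and 671 and 519 at Day 4. In shCTSL it stood at 1394 and 1449.9 at Day 0, 925 and 1286 at Day 2, and 634 and 603 at Day 4. All 4 Day 4 libraries lay below every Day 0 and Day 2 library. From Day 0 to Day 2 it was not called in either line (0.04 ± 0.16 in shSC and -0.36 ± 0.16 in shCTSL), and in shCTSL the value was -0.10 without replicate 1 of Day 2 and -0.62 and called without replicate 2. From Day 2 to Day 4 it was called lower in shSC (-1.03 ± 0.16) and in shCTSL (-0.84 ± 0.16), the latter with -1.08 without replicate 1 of Day 2 and -0.58, no longer called, without replicate 2. Day 4 lay 1.97-fold below Day 0 in shSC (FDR = 0.000345) and 2.2998-fold below it in shCTSL (FDR = 8.68e-05), both called.

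Slc16a3, which exports lactate together with a proton, lies at mm9 chr11:120809794-120822182 on the plus strand. It had the lowest level per kb at Day 0, and its 12 libraries ranged from 10.2 to 43.9 normalized CPM. In shSC the replicates read 29.0 and 31.2 at Day 0, 43.9 and 35.1 at Day 2, and 10.2 and 12.4 at Day 4. In shCTSL they read 28.6 and 25.3, 42.4 and 31.2, and 14.6 and 14.6. The Day 2 libraries of each line lay above those of Day 0 and the Day 4 libraries below. The step up to Day 2 was not called (0.39 ± 0.17, FDR = 0.0712, in shSC and 0.44 ± 0.18, FDR = 0.0491 but under 1.5-fold, in shCTSL), and in shCTSL it was 0.25 without replicate 1 of Day 2 and 0.65 and called without replicate 2. The step down from Day 2 to Day 4 was called in both lines, 3.51-fold in shSC (FDR = 7.17e-05) and 2.52-fold in shCTSL (FDR = 0.000464; -1.12 and -1.54 on the log2 scale without replicate 1 and 2 of Day 2). Day 4 was also called lower than Day 0, with -1.42 ± 0.18 in shSC and -0.89 ± 0.18 in shCTSL.

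The 2 hexokinases behaved differently. Hk2, the inducible hexokinase of growing and tumour cells (mm9 chr6:82675019-82724448, minus strand), stood at 646 and 666 normalized CPM at Day 0 in shSC, 122 and 116 at Day 2, and 166 and 162 at Day 4. In shCTSL it stood at 576 and 584 at Day 0, 99.996 and 130.04 at Day 2, and 160.0 and 168 at Day 4. No Day 2 or Day 4 library stood above 168, and the Day 4 libraries lay above those of Day 2 in each line. Hk2 fell by 2.46 on the log2 scale from Day 0 to Day 2 in shSC (SE 0.13, FDR = 1.83e-07) and by 2.33 in shCTSL (FDR = 2.53e-07; -2.11 and -2.53 without replicate 1 and 2 of Day 2). The partial recovery from Day 2 to Day 4, 0.46 ± 0.12 in shSC (FDR = 0.0163) and 0.51 ± 0.12 in shCTSL (FDR = 0.0106), stayed under 1.5-fold and was not called; in shCTSL it was 0.31 without replicate 1 of Day 2, and 0.71 and called without replicate 2. At Day 4 Hk2 remained 3.99-fold below Day 0 in shSC and 3.53-fold below in shCTSL, both called. Hk1, the constitutive hexokinase of brain and red cells (mm9 chr10:61731603-61842656, minus strand), stood at 78.8 and 87.2 normalized CPM at Day 0, 78.4 and 74.5 at Day 2, and 77.1 and 71.1 at Day 4 in shSC. In shCTSL it stood at 69.7 and 68.8, 76.8 and 85.3, and 75.1 and 74.1. The Day 4 libraries lay below those of Day 0 in shSC and above them in shCTSL. It was called in none of the 6 comparisons between days, where its log2 fold changes were -0.16 to 0.23. From Day 0 to Day 2 in shCTSL it was 0.34 and 0.15 without replicate 1 and 2 of Day 2, and from Day 2 to Day 4 -0.22 and -0.04, none called.

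Of the phosphofructokinases, Pfkp, named for platelets, lies at mm9 chr13:6579014-6648023 on the minus strand and Pfkl, the liver type, at mm9 chr10:77449692-77472828 on the minus strand. Pfkp stood at 185 and 201 normalized CPM at Day 0 in shSC, 37.7 and 37.0 at Day 2, and 25.6 and 17.9 at Day 4. In shCTSL it stood at 130.2 and 124 at Day 0, 27.3 and 26.4 at Day 2, and 15.8 and 17.9 at Day 4. The days did not overlap in either line, and Pfkp had the lowest Day 4 to Day 0 ratio of the 10 genes in both. The first step, Day 0 to Day 2, measured -2.37 ± 0.16 on the log2 scale in shSC and -2.24 ± 0.16 in shCTSL (FDR = 8.17e-07 and 1.17e-06; -2.22 in shCTSL without either replicate of Day 2). It fell again from Day 2 to Day 4, by 0.77 in shSC (FDR = 0.00393; -0.55 and not called without replicate 2 of shSC Day 4) and by 0.67 in shCTSL (FDR = 0.00927; -0.67 and -0.70, both called, without replicate 1 and 2 of Day 2). The call in shCTSL was lost without replicate 1 of shCTSL Day 4 (-0.59, FDR = 0.0866), with limma-voom (FDR = 0.235) and in a fit of the libraries compared alone (FDR = 0.107). From Day 0 to Day 4 it was 8.82-fold lower in shSC (log2 fold change -3.14 ± 0.16) and 7.56-fold lower in shCTSL.

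Pfkl changed later and less. Its level in shSC was 263 and 282 normalized CPM at Day 0, 241 and 213 at Day 2, and 117 and 128 at Day 4. In shCTSL it was 249 and 222 at Day 0, 347 and 225 at Day 2, and 146 and 159 at Day 4. Replicate 1 of shCTSL Day 2 stood above all other libraries. From Day 0 to Day 2 Pfkl was not called (-0.26 ± 0.18 in shSC, FDR = 0.214, and 0.28 ± 0.18 in shCTSL, FDR = 0.190, or -0.02 and 0.56 without replicate 1 and 2). The step from Day 2 to Day 4 was called, with -0.89 ± 0.18 in shSC and -0.90 ± 0.18 in shCTSL, and in shCTSL it was -0.58 and not called without replicate 1 of Day 2, and -1.19 and called without replicate 2. Day 4 was called lower than Day 0 in both lines, 2.23-fold in shSC (FDR = 0.000233) and 1.54-fold in shCTSL (FDR = 0.0102). The call in shCTSL was lost without replicate 1 of Day 0 (-0.54, FDR = 0.0683) or of Day 4 (-0.57, FDR = 0.0645).

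At the fate of pyruvate, Ldha (mm9 chr7:54096845-54110997, plus strand) and Ldhb (mm9 chr6:142438769-142456477, minus strand) changed in opposite directions from Day 0 to Day 2. Ldha stood at 1043 and 1079 normalized CPM at Day 0 in shSC, 224 and 213 at Day 2, and 173 and 151 at Day 4. In shCTSL it stood at 1079 and 1038 at Day 0, 321 and 161 at Day 2, and 158 and 161 at Day 4. No later library of either line came near the Day 0 level. From Day 0 to Day 2 the log2 fold change of Ldha was -2.28 in shSC (SE 0.25, FDR = 2.51e-05) and -2.14 in shCTSL (FDR = 3.8e-05; -2.67 and -1.72 without replicate 1 and 2 of Day 2). The further step to Day 4 was not called (-0.43 ± 0.24 in shSC and -0.59 ± 0.24 in shCTSL, where it was -0.04 and -1.01 without replicate 1 and 2 of Day 2, and called in the latter case), and Day 4 was 6.56-fold and 6.63-fold below Day 0 in shSC and shCTSL.

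Ldhb rose from Day 0 to Day 2, where Ldha fell. In shSC it stood at 77.0 and 79.1 normalized CPM at Day 0, 129 and 127 at Day 2, and 83.3 and 92.0 at Day 4. In shCTSL it stood at 78.2 and 67.3 at Day 0, 243 and 133 at Day 2, and 96.5 and 109 at Day 4. Day 2 lay above Day 0 and Day 4 in both lines, and Day 4 lay above Day 0. The rise to Day 2 was called in both, 1.64-fold in shSC (log2 fold change 0.71 ± 0.22, FDR = 0.0178) and 2.58-fold in shCTSL (1.37 ± 0.23, FDR = 0.000439; 0.91 and 1.74 without replicate 1 and 2 of Day 2). In shSC that call was lost when any of the 4 libraries compared was left out (FDR = 0.0551 to 0.0818), with the log2 fold change at 0.69 to 0.77. From Day 2 to Day 4 Ldhb was not called in shSC (-0.55 ± 0.22, FDR = 0.0936) and was called lower in shCTSL (-0.88 ± 0.22, FDR = 0.0150), a call that was lost without replicate 1 of Day 2 (-0.40) or either replicate of Day 4, and held without replicate 2 of Day 2 (-1.25). The level at Day 4 was 0.17 ± 0.22 above Day 0 in shSC (FDR = 0.530) and 0.49 ± 0.23 above it in shCTSL (FDR = 0.0748), neither called.

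Pdk1 (mm9 chr2:71711281-71741915, plus strand) declined stepwise. Its level in shSC was 240.0 and 255 normalized CPM at Day 0, 85.5 and 87.5 at Day 2, and 44.5 and 43.5 at Day 4. In shCTSL it was 214 and 220.4 at Day 0, 73.5 and 66.0 at Day 2, and 46.4 and 43.0 at Day 4. Days did not overlap within a line, and the lines overlapped at Day 4. Pdk1 fell by 1.52 on the log2 scale from Day 0 to Day 2 in shSC and by 1.64 in shCTSL (FDR = 8.11e-07 and 5.16e-07; -1.67 and -1.56 in shCTSL without replicate 1 and 2 of Day 2). It fell by a further 0.97 and 0.64 from Day 2 to Day 4 (FDR = 7.62e-05 and 0.00105; -0.59 and -0.72 in shCTSL without replicate 1 and 2 of Day 2, both called), to 5.62-fold and 4.86-fold below Day 0.

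Promoters are shown for the 4 genes that fell most, Hk2, Pfkp, Ldha and Pdk1, and for Ldhb, which rose at Day 2 while they fell. Sequences are from RefSeq (build GRCm38.p6), which gave 9 of the 10 genes, with Slc2a3 missing, and each runs 5′ to 3′ over 300 bases, most of them upstream of the annotated start. Capitals mark ACGTG, a form of the core of the hypoxia response element, or its reverse complement CACGT. The other form of that core, GCGTG, was not searched. The palindrome CACGTG (the E-box of MYC and USF factors) holds ACGTG on both strands and is counted there 2 times. The positions are chr7:46845554-46845853 (plus strand) for Ldha, chr6:82774405-82774704 (minus) for Hk2, chr13:6648722-6649021 (minus) for Pfkp, chr2:71872974-71873273 (plus) for Pdk1 and chr6:142507908-142508207 (minus) for Ldhb.
Ldha: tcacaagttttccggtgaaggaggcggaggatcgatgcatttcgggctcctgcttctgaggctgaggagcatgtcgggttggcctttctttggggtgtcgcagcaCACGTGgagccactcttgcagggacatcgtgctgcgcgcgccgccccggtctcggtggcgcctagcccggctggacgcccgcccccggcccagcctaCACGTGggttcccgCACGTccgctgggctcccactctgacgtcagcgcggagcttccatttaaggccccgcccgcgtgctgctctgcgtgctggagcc
Hk2: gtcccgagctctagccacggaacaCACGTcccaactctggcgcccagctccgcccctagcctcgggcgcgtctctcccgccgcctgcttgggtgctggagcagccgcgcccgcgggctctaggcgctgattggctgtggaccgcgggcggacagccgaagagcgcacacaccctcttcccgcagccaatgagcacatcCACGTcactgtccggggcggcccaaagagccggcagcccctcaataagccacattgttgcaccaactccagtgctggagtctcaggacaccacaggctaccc
Pfkp: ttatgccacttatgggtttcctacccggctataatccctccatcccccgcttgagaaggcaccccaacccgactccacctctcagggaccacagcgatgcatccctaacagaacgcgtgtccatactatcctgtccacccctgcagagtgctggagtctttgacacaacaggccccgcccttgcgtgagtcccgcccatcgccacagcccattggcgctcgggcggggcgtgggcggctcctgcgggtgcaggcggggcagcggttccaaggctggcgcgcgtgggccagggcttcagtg
Pdk1: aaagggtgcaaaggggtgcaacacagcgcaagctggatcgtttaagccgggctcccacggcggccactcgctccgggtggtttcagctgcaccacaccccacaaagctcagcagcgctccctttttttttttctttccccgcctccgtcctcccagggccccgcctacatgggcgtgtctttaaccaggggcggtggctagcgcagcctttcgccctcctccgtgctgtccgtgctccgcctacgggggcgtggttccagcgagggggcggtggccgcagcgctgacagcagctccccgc
Ldhb: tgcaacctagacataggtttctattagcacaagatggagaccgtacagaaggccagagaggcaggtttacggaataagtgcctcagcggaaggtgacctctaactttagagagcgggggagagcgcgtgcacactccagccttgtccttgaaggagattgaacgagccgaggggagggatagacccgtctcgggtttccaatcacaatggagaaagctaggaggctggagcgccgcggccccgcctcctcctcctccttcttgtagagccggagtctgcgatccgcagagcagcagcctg

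Ldha held ACGTG 5 times, 4 of them in its 2 CACGTG, and Hk2 held it 2 times, on the minus strand of the sequence as printed. Pfkp, Pdk1 and Ldhb held it 0 times in these windows. Among the other genes, Slc16a3 held 2 and Slc2a1 held 1, Pfkl 0, and of the 2 annotated starts of Hk1 the first held 0 and the second 2. The second annotated starts of Ldha and Pdk1 held 0. Among all 32851 promoters in the same table, 19.6% held ACGTG, 8.21% held it 2 or more times and 7.15% held CACGTG, both strands searched. GGGCGG, the GC box of SP1, was found 4 times in Pfkp, 3 in Hk2, 3 in Ldha, 2 in Pdk1 and 0 in Ldhb. Among the other genes it was found 3 times in Pfkl, 2 in Slc2a1, 1 in Slc16a3 and 0 at either start of Hk1. The second starts of Ldha and Pdk1 held 0. Of all promoters 35.7% held it, and 19.5% held it 2 or more times. The genes that fell together did not all hold ACGTG within these windows. As GCGTG was not searched, these counts cannot tell whether the genes share the core in either form. The letters say nothing of a factor's binding.

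Because isoforms of a step differ in kinetics, the share that each held of its pair was compared between days, as reads per kb of exon. In undifferentiated cells Hk2 made up most of the hexokinase pair and Ldha most of the dehydrogenase pair, and by Day 4 Hk1, Ldhb, Pfkl and Slc2a1 had each gained. The Ldhb share of Ldha and Ldhb was 12.3% and 12.2% in the shSC Day 0 libraries and 12.1% and 10.97% in those of shCTSL. At Day 4 it was 47.8% and 53.7% in shSC and 53.7% and 56.1% in shCTSL, so that all Day 4 libraries lay far above all Day 0 libraries. It had reached 52.2% and 53.2% in shSC and 59.0% and 61.1% in shCTSL by Day 2. The 2 shCTSL Day 2 libraries, which differed widely in the level of either gene, thus lay close in this share. The mean share rose by 40.9 percentage points from Day 0 (11.9% ± 0.624, n = 4) to Day 4 (52.8% ± 3.53, n = 4), with p = 0.0286 in a two-sided exact permutation test, the smallest that 4 against 4 libraries can give. The test pools the lines, and within a line 2 against 2 libraries cannot reach 0.05. Ldha has 7 further alignments in mm9 and Ldhb 1, so the level of this share is uncertain, as are the levels of both genes.

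The Hk2 share of Hk1 and Hk2 was 91.6% to 92.4% in the 4 Day 0 libraries and 75.3% to 76.6% in the 4 Day 4 libraries, a mean difference of -16.1 percentage points. At Day 2 it was lower than at either, 69.0% and 69.0% in shSC and 65.0% and 68.5% in shCTSL. The Pfkp share of Pfkl and Pfkp was 24.7% and 25.0% in shSC and 19.7% and 20.8% in shCTSL at Day 0, and 4.79% to 9.29% over the Day 4 libraries, a mean difference of -16.2 points. The Slc2a3 share of Slc2a1 and Slc2a3 was 51.8% to 56.3% at Day 0. At Day 4 it was 35.9% and 36.9% in shSC and 46.7% and 45.6% in shCTSL, a mean difference from Day 0 of -12.2 points over both lines. The exact permutation p was 0.0286 for each of these 3 shares as well, and remained 0.0286 after adjustment over the 4 shares (Benjamini-Hochberg). Taken on reads alone or per kb of the longest coding transcript, each share kept its direction and p, while its level changed. As a share of reads in shSC, Slc2a3 held 73.5% at Day 0 and 59.3% at Day 4, Hk2 88.8% and 68.9%, Pfkp 41.4% and 15.1%, and Ldhb 6.85% and 35.2%.

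**Figure D3:**
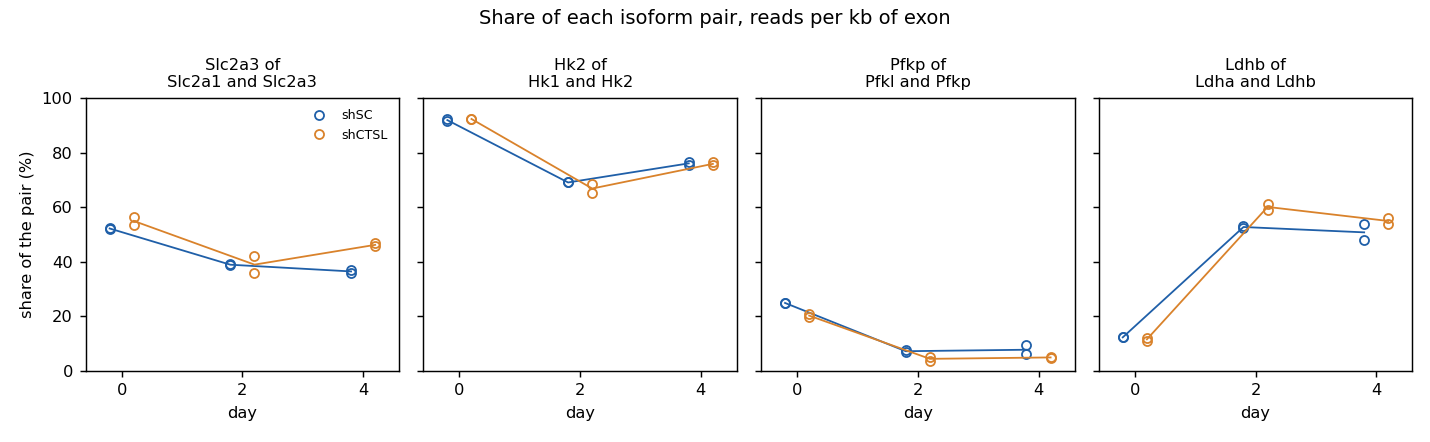
Share (vertical axis, percent of reads per kb of exon, 0 to 100) that 1 isoform held of each pair, by day, in shSC (blue) and shCTSL (orange). Circles are single libraries and lines join the group means; the Ldhb share climbs from near 12% at Day 0 to 47.8% to 61.1% at Days 2 and 4, while the other 3 shares are lower at Day 4 than at Day 0 in all libraries.

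Between the lines, none of the 10 genes was called at any day. edgeR called 0 of 10 at Day 0 (0.0386% of all genes tested), 0 at Day 2 (0.0644%) and 0 at Day 4 (0.0129%). It also called 0 for the average of the 3 days (0.27%). In these comparisons 2, 3, 2 and 3 of the 10 had an unadjusted p under 0.05 (edgeR). So had 1127, 3014, 1897 and 3510 of all 15532 genes tested. DESeq2 also called 0 in each, and limma-voom with library weights called 1 at Day 0 and 0 in the others. Over all 15532 genes DESeq2 called 48, 120, 123 and 124 in these comparisons and limma-voom 254, 0, 723 and 128, against 6, 10, 2 and 42 by edgeR. The log2 fold changes of shCTSL over shSC ranged from -0.60 (Pfkp) to 0.28 (Slc2a3, SE 0.16, FDR = 0.801) at Day 0, from -0.48 (Pfkp) to 0.56 (Ldhb, SE 0.22, FDR = 0.235) at Day 2, and from -0.53 (Slc2a1, SE 0.13, FDR = 0.210) to 0.37 (Slc16a3, SE 0.18, FDR = 0.439) at Day 4. Averaged over the days they ranged from -0.48 (Pfkp) to 0.23 (Ldhb, SE 0.13, FDR = 0.290).

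Pfkp was the gene nearest to a difference between the lines. Its shCTSL libraries lay below those of shSC at each day, at 124 and 130.2 against 185 and 201 normalized CPM at Day 0, 26.4 and 27.3 against 37.0 and 37.7 at Day 2, and 15.8 and 17.86 against 17.89 and 25.6 at Day 4. The mean over the days was -0.48 ± 0.09 with an FDR of 0.0525, and 1.40-fold. At Day 0 the difference was -0.60 ± 0.15 (1.52-fold) with an FDR of 0.319. That value was close to the same without the shCTSL Day 2 libraries, which are no part of the comparison but enter the estimate of the spread, and the call was then made (-0.59, FDR = 0.00412, without replicate 1 and -0.60, FDR = 0.00404, without replicate 2), as with limma-voom (FDR = 0.00104). Slc2a1 at Day 4 stood at 285 and 283 in shCTSL against 471 and 349 in shSC, with no overlap and no call. Ldhb at Day 2 rested on replicate 1 of shCTSL: the log2 fold change was 0.07 without it and 0.92 without replicate 2. Pfkl at Day 2 was likewise -0.0040 without replicate 1 and 0.61 without replicate 2.

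**Figure D4:**
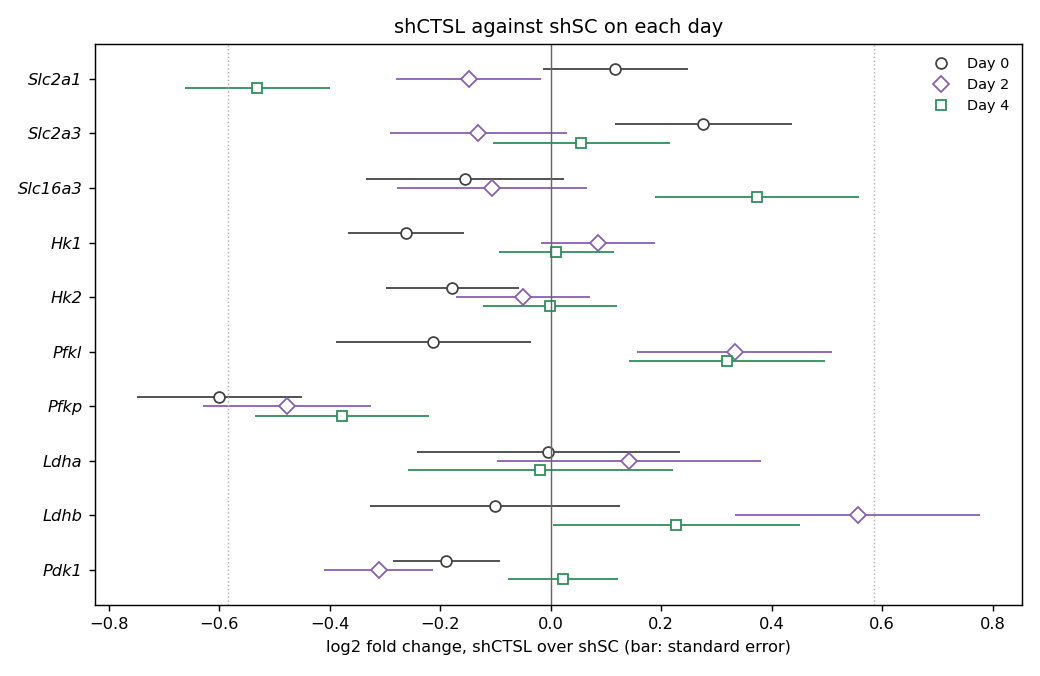
Log2 fold change of shCTSL over shSC (horizontal axis) for each gene at Day 0 (circles), Day 2 (diamonds) and Day 4 (squares), with standard errors as bars and 1.5-fold as dotted lines. All symbols are open, as none was called; Pfkp lies left of 0 at all 3 days, from -0.60 to -0.38.

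The change between days was also compared between the lines, as the log2 fold change in shCTSL minus that in shSC. For Day 4 against Day 0 edgeR called 0 of the 10 genes (0.00644% of all genes tested). Of the 10, 1 had an unadjusted p under 0.05, as had 1042 of all genes tested. The differences ranged from -0.65 ± 0.19 (Slc2a1, FDR = 0.619) to 0.53 ± 0.25 (Pfkl, FDR = 0.754). The Slc2a1 difference was -0.65 without replicate 1 or 2 of shCTSL Day 2, which are no part of this comparison. It was called by limma-voom (-0.64, FDR = 0.0382), which called 130 of all genes there, and it spanned -0.85 to -0.42 over all libraries left out. For Day 4 against Day 2 edgeR called 0 of 10 and 0% of all genes (753 of which had an unadjusted p under 0.05), and the differences ranged from -0.38 (Slc2a1) to 0.48 (Slc16a3). Without replicate 1 and 2 of shCTSL Day 2, which leaves 1 library in that group, the difference was 0.73 and 0.29 for Slc16a3, and 0.17 and -0.69 for Ldhb. For Day 2 against Day 0, a comparison added after the data were seen, edgeR again called 0 of 10 and 0% of all genes (1716 at an unadjusted p under 0.05). The values ran from -0.41 (Slc2a3) to 0.66 (Ldhb). Without replicate 1 and 2 of shCTSL Day 2 they were 0.15 and 1.02 for Ldhb, 0.20 and 0.82 for Pfkl, and -0.19 and -0.66 for Slc2a3. DESeq2 called 0 of the 10 in all 3 differences.

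The rest of the pathway was read from 5 lists, of which 67 genes of 70 were tested. Among 21 other glycolytic enzymes tested of 23, 6 were called higher and 11 lower from Day 0 to Day 4 in shSC, with a median log2 fold change of -0.63, and 4 higher and 10 lower in shCTSL. Among all genes tested 32.1% were called higher and 28.7% lower in shSC in this comparison, and 32.3% and 27.6% in shCTSL, and the counts of all 5 lists stand beside these shares. The lowest values belonged to the enolase Eno1 (-2.91 ± 0.59, FDR = 0.0014) and the dehydrogenase Gapdh (-2.47 ± 0.53, FDR = 0.00196), whose transcripts have 5 and 117 further alignments in mm9 so that their counts are uncertain. The neuronal enolase Eno2 (2.58 ± 0.16) was the highest. The 13 tested genes of other glucose and lactate carriers went mostly the other way, with 8 called higher and 3 lower in each line and a median of 2.12 in shSC. Slc2a10 (4.35 ± 0.80) and the myo-inositol carrier Slc2a13 (3.97 ± 0.35) rose most, and the sodium-coupled carrier Slc5a1 (-2.49 ± 0.34) and the fructose carrier Slc2a5 (-1.47 ± 0.23) fell most. All genes tested had a median of 0.03 in this comparison.

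A list of 13 genes covered the entry of pyruvate into mitochondria and its oxidation there. Of these, 3 were called higher and 6 lower from Day 0 to Day 4 in each line, with a median of -0.54 in shSC. The other pyruvate dehydrogenase kinases Pdk2 (2.46 ± 0.17) and Pdk3 (1.02 ± 0.12) rose while Pdk1 fell, and Pdha1, the catalytic subunit of pyruvate dehydrogenase (-1.70 ± 0.17), and the pyruvate carrier Mpc1 (-1.68 ± 0.29) fell. Among 14 hypoxia-inducible genes outside glycolysis, 7 were called higher and 3 lower in each line, with a median of 0.41 in shSC. Adrenomedullin Adm (4.54 ± 0.71) and the prolyl hydroxylase P4ha2 (2.01 ± 0.17) rose most, and Ankrd37 (-1.34 ± 0.30) and Ndrg1 (-1.03 ± 0.13) fell most. Of the set, Ldha, Pdk1, Hk2, Slc2a3 and Slc16a3, hypoxia-inducible as well, were called lower over the same days in both lines. Slc2a1, also hypoxia-inducible, was called lower only in shCTSL and had its highest level at Day 2 in both lines. Of 6 regulators none was called higher and 3 were called lower in each line, Myc by -2.55 ± 0.15, Mycn by -1.86 ± 0.11 and Epas1, which encodes HIF-2α, by -0.99 ± 0.27. All values named in these lists had FDRs from 2.1e-07 to 0.00836 (edgeR). Between the lines edgeR called none of the 67 genes at any day. At Days 0, 2 and 4, 6, 11 and 8 of them had an unadjusted p under 0.05. So had 1127, 3014 and 1897 of all 15532 genes tested.

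**Figure D5:**
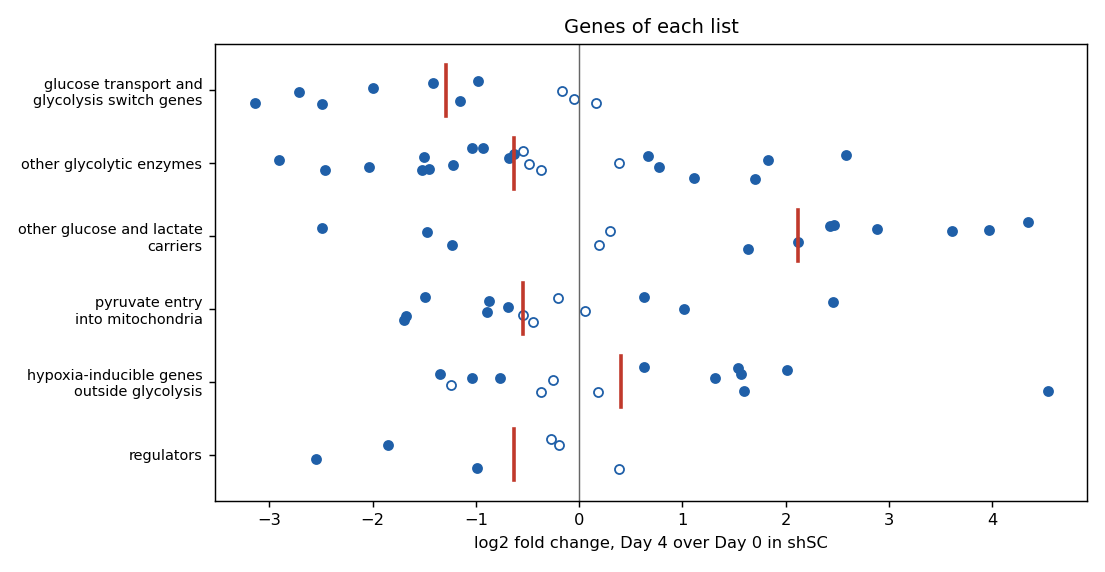
Log2 fold change from Day 0 to Day 4 in shSC (horizontal axis) of each gene tested in the set and in 5 further lists; filled circles are called, open ones are not, and red bars mark the median of a list. The set has its median at -1.29 and no called gene above 0, whereas the other carriers have theirs at 2.12.

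Across the 12 libraries, which share the time course as their main source of variance, Pfkp followed Pdk1 (Pearson r = 0.98) and Ldha (0.97), Ldha followed Pdk1 (0.97), and Hk2 followed Ldha (0.91), on log2 normalized CPM. Slc16a3 followed Pfkl (0.92) more closely than these, and Hk2 and Ldhb ran opposite (-0.77). Among 9889 other genes with a mean of at least 10 CPM, those most like Ldhb, the member with the highest Day 4 to Day 0 ratio in shSC, were Akr7a5 (r = 0.982), Ccdc107 (0.981) and Ethe1 (0.980). Those most like Pfkp, the member with the lowest, were Gfpt2 (0.994), AU018091 (0.990) and Kif20b (0.989). These correlations describe 12 libraries of 6 groups and carry no test.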

How the data were processed

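Poly(A) RNA of 12 libraries had been sequenced on strand-marking libraries, and per the study's methods the authors aligned reads to mm9 with STAR (2.3.0e in the submitters' processing notes), removed alignments of mapping quality under 10 and those on mitochondria or unplaced contigs, and made the deposited table of raw counts per RefSeq gene with featureCounts 1.6.2. No source used here gives the strand setting of that count, so reads of overlapping antisense genes may be included.

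Counts were scaled by TMM and tested with edgeR 4.0.16 (quasi-likelihood, R 4.3.3) in 1 fit of all 12 libraries and 6 groups, on genes kept by its expression filter (minimum count 10). Normalized CPM used TMM-scaled library sizes, and TMM factors were 0.835 to 0.858 at Day 0 and 1.03 to 1.11 later. Levels per kb used the merged exon length of each gene in the GENCODE annotation of mm9, and further alignments of transcripts were found with minimap2 2.31. The p-values rest on a spread estimated from the 2 libraries of each of the 6 groups together. The wide spread within shCTSL Day 2 therefore enters every comparison. Alternatives were DESeq2 1.42.0, limma 3.58.1 (voom with library weights), other filters, a fit of the compared libraries alone, length offsets, a replicate block, a log2 fold limit of 1.5 and leaving out each library. The computations were tested on simulated data.

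The genes of the set and the further lists were chosen with earlier results of these data known. Every gene of the set is named. In each further list, the named genes are the 2 called genes with the highest and the 2 with the lowest Day 4 to Day 0 log2 fold change in shSC. The value of 1 gene that this rule names is not reported here. Between the lines, the genes with the highest and lowest log2 fold change are given, and other genes named there were chosen after their values were seen. Likeness of pattern was ranked by Pearson r for the genes with the highest and lowest Day 4 to Day 0 change in shSC, leaving out predicted loci.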

Additional observations from a re-analysis of the deposited data

Results flagged for a closer look

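Among the 4 Day 0 libraries, replicate 2 of shCTSL stood apart in the Ldhb share of Ldha and Ldhb, with 10.97% against 12.1% to 12.3% in the other 3, a gap that took most of the range of the 4. Such a gap is met by chance in about 1 of 20 groups of 4 values drawn from a single source. These 4 libraries came from both lines, and all 4 shares were screened at Day 0 and at Day 4. The Day 4 shares of Ldhb were 47.8% or higher.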

How the results depend on the processing

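Log2 fold changes under alternatives were tallied for all 10 genes between days. Between the lines only Pfkp, Slc2a1 and the genes with the highest and lowest value were tallied. Other changes are outside the tally, such as the Ldha difference of Day 2 against Day 0 (0.15, and -0.43 without replicate 1 of shCTSL Day 2). Of 827 values tallied under alternatives other than leaving out a library, 788 kept direction and call, 3 reversed, 8 gained a call and 28 lost it. Of 984 tallied with a library left out, 952 kept both, 5 reversed, 14 gained a call and 13 lost it. The reversals were of values that were not called: with exonic length offsets Slc2a3 from Day 0 to Day 2 in shSC became -0.13 and Hk1 from Day 0 to Day 4 in shCTSL -0.10, with DESeq2 Slc2a1 from Day 0 to Day 4 in shSC became 0.0040, and with single libraries left out Hk1 from Day 2 to Day 4 in shSC spanned -0.11 to 0.012, Slc2a1 from Day 0 to Day 4 in shSC -0.28 to 0.15, Pfkl from Day 0 to Day 2 in shCTSL -0.023 to 0.56, and the difference between the lines in Pfkp -0.0065 to 0.51 for Day 4 against Day 0 and -0.13 to 0.39 for Day 4 against Day 2. A limit of 1.5 on the log2 scale left 1 of the 10 genes called from Day 2 to Day 4 in shSC and 0 in shCTSL, and 4 from Day 0 to Day 4 in each line. Fitting only the libraries compared left 2 called from Day 2 to Day 4 in shCTSL in place of 7, with fewer degrees of freedom. The counts under that limit and in this fit are given without the share of all genes called. They therefore do not set the 10 genes apart from other genes. limma-voom called 1 gene between the lines at Day 0 and 1 in the difference of Day 4 against Day 0. With a library left out, the number of genes called between the lines changed as well, in fits that leave 1 library in a group. The change in the Slc2a3 share of Slc2a1 and Slc2a3 then spanned -14.1 to -10.5 points, and those of the Hk2, Pfkp and Ldhb shares -16.4 to -15.9, -17.2 to -15.4 and 39.8 to 42.6, with p = 0.0571 in the exact permutation test, the smallest it allows with 3 against 4 libraries.

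The replicate numbers did not pair the samples (correlations of same-numbered deviations -0.299 to 0.104). With a replicate block the shares changed by -12.2, -16.1, -16.2 and 40.9 points as without it, with exact permutation p = 0.125, the smallest that 4 pairs allow, and a crossed block added after seeing the data called 7 genes from Day 2 to Day 4 in shCTSL, as the test without it did. Replicates differed by more than counting error in all 6 groups (chi-square per degree of freedom 2.64 to 130.2), so depth was not the limit of precision.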
